A study of Drosophila melanogaster with 2 samples.

Results

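The genes described here are 3 regulators of the Drosophila salivary gland, fkh, CrebA and sage, and 6 of the genes for the glue proteins that the gland secretes, Sgs1, Sgs3, Sgs4, Sgs5, Sgs7 and Sgs8. They were taken by symbol from the dm6 annotation and are 9 of the 13945 protein-coding genes on the major chromosome arms, the X and chromosome 4. What was measured at them is the binding of Rel (Relish), the NF-κB factor of the Imd immune pathway. The series holds 2 biological replicates, numbered 2 and 3, of 1 group. These are wandering larvae of the third instar, sexes pooled and age not known, of a stable transgenic line in which Rel carries GFP at its C terminus, and the larvae were used whole. Chromatin was sonicated to 200 to 800 bp and precipitated with an antibody against GFP. No infection and no other genotype or condition is labelled, so no groups were compared.

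Glue is made in the salivary gland late in larval life and is expelled when the larva settles, to fix the pupal case to its support. The steroid hormone ecdysone and the forkhead factor Fkh switch the glue genes on, and the hormone pulse that ends larval life switches them off again, so wandering larvae are near the end of this program. Fkh also sets up the gland in the embryo, where it acts together with Sage, a basic helix-loop-helix protein of the gland, and with CrebA, a bZIP factor that raises the genes of the secretory pathway. Rel is best known from the fat body, where it turns on genes for antimicrobial peptides after bacterial infection.

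In whole larvae the organ in which Rel was bound is not known, and the files hold no expression values with which to check the material against gland markers. Only Rel that carries the tag is seen. Each deposited list holds regions with a summit and the authors' signal value, which was used only to rank regions within its own list. The list that the authors kept after the irreproducible discovery rate (IDR) procedure holds 2133 peaks and is the top of the list from the pooled reads of both replicates. That relaxed list and those of the single replicates hold 30000 regions each, peaks mixed with background, so the rank of a region says more than its presence. The pooled list and the replicate lists share reads and are not independent. No read counts are given, so library depth is unknown.

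Sequence is shown around the summits of the IDR list in or up to 1000 bp upstream of fkh and CrebA. It is also shown for the strongest IDR peak upstream of CrebA and for the 3 glue genes that had a region in the pooled list. The strong and the weak sites at these genes can so be read side by side. The IDR peak 1849 bp upstream of CrebA is not shown. The windows are reference sequence of dm6, 100 bp on either side of the summit of the pooled list, 5′ to 3′ in the direction in which the gene is transcribed. They are chr3R:28585404-28585604 (minus strand) for fkh, chr3L:15547435-15547635 (plus) for the intron of CrebA, chr3L:15532387-15532587 (plus) for the strongest peak upstream of CrebA, chr2L:4937189-4937389 (plus) for Sgs1, chr3R:17595202-17595361 (plus, stopped at the gene's start) for Sgs5 and chrX:3249669-3249869 (plus) for Sgs4. Capitals mark matches to a kB string in the fkh window, to GATAAG in the CrebA intron and Sgs4 windows, to TGTTTAT in the Sgs1 window and, on the other strand, to TATTTAC in the Sgs4 window.
fkh promoter peak: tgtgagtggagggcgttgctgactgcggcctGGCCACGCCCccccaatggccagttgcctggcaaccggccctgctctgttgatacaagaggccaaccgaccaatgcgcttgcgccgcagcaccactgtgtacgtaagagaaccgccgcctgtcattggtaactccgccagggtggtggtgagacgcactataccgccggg
CrebA intron peak: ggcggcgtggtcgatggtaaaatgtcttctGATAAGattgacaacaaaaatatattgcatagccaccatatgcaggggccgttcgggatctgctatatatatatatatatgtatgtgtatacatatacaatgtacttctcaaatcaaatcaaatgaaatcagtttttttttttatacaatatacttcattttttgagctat
CrebA far upstream peak: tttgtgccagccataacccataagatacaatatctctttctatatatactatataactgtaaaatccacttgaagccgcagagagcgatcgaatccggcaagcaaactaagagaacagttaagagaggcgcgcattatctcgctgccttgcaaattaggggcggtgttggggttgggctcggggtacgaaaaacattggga
Sgs1 promoter region: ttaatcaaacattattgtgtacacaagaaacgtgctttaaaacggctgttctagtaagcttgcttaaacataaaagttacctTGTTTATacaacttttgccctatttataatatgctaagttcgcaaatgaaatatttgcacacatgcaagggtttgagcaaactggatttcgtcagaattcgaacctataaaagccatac
Sgs5 promoter region: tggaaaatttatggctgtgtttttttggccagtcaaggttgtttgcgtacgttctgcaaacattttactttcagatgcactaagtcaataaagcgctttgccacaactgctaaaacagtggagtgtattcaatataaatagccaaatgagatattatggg
Sgs4 upstream region: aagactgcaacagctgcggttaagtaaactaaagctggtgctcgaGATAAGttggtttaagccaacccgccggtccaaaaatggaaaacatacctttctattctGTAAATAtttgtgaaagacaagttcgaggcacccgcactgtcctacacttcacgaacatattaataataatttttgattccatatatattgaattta

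A set of 10 strings was searched on both strands of these windows. For forkhead factors these were TGTTTAC, its variant TATTTAC, and a further variant TGTTTAT. For CREB-type factors ACGTGG was searched, and as another form TGACGT. The set also held the E-box CANNTG of basic helix-loop-helix factors, the string GATAAG of GATA factors, the repeat GAGAGAG, the dinucleotide repeat CACACACA, and a broad kB string of 3 G, 5 bases of any kind and 2 C. A match describes the letters and is not a site. The kB string was found in the fkh window, at bases 32 to 41 on the strand opposite to the one shown, and 8.06% of all 2133 IDR windows of the same length hold it. None of the 3 forkhead strings was found in the fkh window or in the CrebA windows. Among the glue genes, the Sgs1 window holds TGTTTAT (in 9.94% of IDR windows) and the Sgs4 window holds TATTTAC on the opposite strand (6.66%). GATAAG, in 10.9% of IDR windows, is in the CrebA intron window at bases 31 to 36 and in the Sgs4 window at bases 46 to 51. CANNTG, which is in 59.9% of IDR windows, is in all 6 windows and was not put in capitals. Both repeats, both CREB-type strings and the first forkhead string were in none of the 6. The fkh window is rich in G and C (63.7%), whereas IDR windows had a median of 38.3%, with quartiles of 33.3% and 44.8%. The CrebA intron window had 31.8% G and C, the upstream CrebA window 45.3%, and those of Sgs1, Sgs5 and Sgs4 33.3%, 36.9% and 37.3%.

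Rel peaks of the IDR list were found at 2 of the 9 genes. An IDR summit lay in the gene or up to 1000 bp upstream for fkh and CrebA, 2 of 9, against 10.6% of all 13945 protein-coding genes (1485 genes). The remaining regulator, sage, had none, and neither did any of the 6 glue genes. Long genes hold summits more often, with a median length of 7399 bp in the genes with an IDR summit and 2166 bp in all genes. Of the glue genes Sgs1 is longer than that median, at 4015 bp, and the other 5 are shorter. Among genes of 0.5 to 2 times the length of each member, the share with an IDR summit was 10.7% for fkh, 27.7% for CrebA and 5.32% for sage. It was 9.9% for Sgs1, 4.66% for Sgs3, 4.07% for Sgs4, 3.64% for Sgs5, 1.85% for Sgs7 and 2.09% for Sgs8. Most genes of each of these lengths had no IDR summit, so a count of 0 in 6 does not set the glue genes apart from them.

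The relaxed lists placed weak regions at some of the glue genes. A region of the pooled list had its summit in or up to 1000 bp upstream of 5 of the 9 genes (fkh, CrebA, Sgs1, Sgs4 and Sgs5), against 52.8% of all genes. The same 5 genes had a region in both replicate lists, against 44.4% of all genes, and sage had one in the replicate 2 list only. These shares are near those of all genes, so presence in a relaxed list sets the members apart from other genes in neither direction. The order of ranks carries more. Genes with a better ranked region in the pooled list made up 2.54% of all genes for fkh, 5.9% for CrebA, 21.1% for Sgs1, 27.6% for Sgs5 and 33.8% for Sgs4. In the single replicates these shares moved. For fkh they were 2.74% in replicate 2 and 3.24% in replicate 3, for CrebA 4.49% and 9.12%, and for Sgs1 29.1% and 22.6%. For Sgs5 they were 43.2% in replicate 2 and 31.2% in replicate 3, and for Sgs4 57.5% and 35.8%. All these are shares of all genes, and a gene without a region cannot rank better. In the pooled list only 52.8% of genes had one, so Sgs5 and Sgs4 are past the middle of those genes. Ranks were not set against genes of like length.

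**Figure D1:**
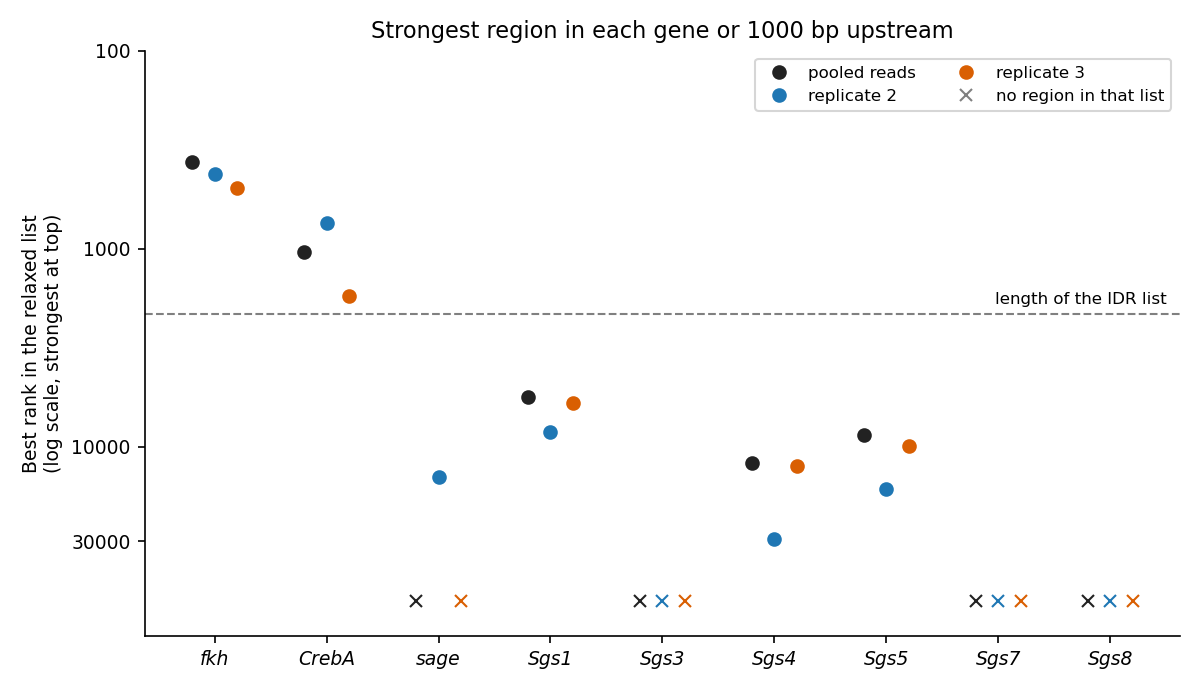
Best rank of any region in each gene or up to 1000 bp upstream (y axis, log scale, strongest at the top) for the 3 regulators and the 6 glue genes (x axis), in the pooled list and in the lists of replicates 2 and 3. The dashed line is the length of the IDR list, 2133, and crosses mark lists with no region. Points of fkh and CrebA lie above the line in all 3 lists, and every point of sage and the glue genes lies below it.

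At fkh, the FoxA-type forkhead gene that the salivary gland needs to form, Rel had a strong peak at the promoter. The gene (FBgn0000659, chr3R:28580976-28585264, minus strand, 4289 bp) has 5 annotated transcripts of 1 exon each, which start at 2 sites. The peak, chr3R:28585306-28585701, has its summit at 28585504, 240 bp upstream of the outer start and 392 bp upstream of the inner one, which 4 of the 5 transcripts use. It ranked 363 in the IDR list, with a signal of 152. In the replicate 2 list it ranked 418 (signal 85.4) and in the replicate 3 list 491 (signal 63.2), with summits 19 bp and 0 bp from the pooled one. Both replicates thus placed it well inside their own top 2133 regions, and 23.8% of the 1485 genes with an IDR summit had a better rank. The non-coding gene lncRNA:CR43126 starts on the opposite strand, 784 bp from the start of fkh and 544 bp from the summit, so the peak lies between divergent starts.

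Around fkh no other region came close to that peak. In the pooled list the gene and its 1000 bp upstream held 2 further regions, with ranks of 19966 at 444 bp upstream and 23700 at 1203 bp inside the gene. Replicate 2 had 1 further region, rank 29585, near the 3′ end, and replicate 3 had 1 at rank 8226, 453 bp upstream. Beyond the 3′ end the best pooled region within 10000 bp of the gene lay 5897 bp from the start of fkh and ranked 10570 in the pooled list, 20262 in replicate 2 and 4422 in replicate 3, with summits up to 186 bp apart. Replicate 2 ranked another region higher there, 13481 at 12305 bp from the start. The next IDR peak was 48363 bp from the start, in Ppn, the gene of the matrix protein papilin, and its ranks were 1984 in the pooled list, 12766 in replicate 2 and 580 in replicate 3.

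CrebA showed a different layout, with Rel regions spread along the gene and its upstream side. The gene (FBgn0004396, chr3L:15535395-15553214, plus strand, 17820 bp) has 2 transcripts of 6 exons from 1 start. Its IDR peak, chr3L:15547337-15547732, lies 12140 bp inside the gene, near the end of the first intron of 11420 bp (chr3L:15536456-15547875). The nearest protein-coding start to this peak, 6578 bp away, is that of the neighbour AGO2 and not that of CrebA. The peak ranked 1033 in the IDR list (signal 101), 739 in replicate 2 (signal 69.2) and 2869 in replicate 3 (signal 31.2). The replicates differed here, since the peak is inside the top 2133 of replicate 2 and outside that of replicate 3. Such a difference is common in the list: 1280 of the 2133 IDR peaks (60.0%) were overlapped by a top 2133 region of both replicates. Of the 1485 genes with an IDR summit, 55.4% had a better rank, so CrebA ranked lower among them than fkh did.

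In replicate 3 the best region of CrebA was another one in the same intron. Its summit, 9456 bp from the start, ranked 1733 in replicate 3, 6230 in replicate 2 and 2161 in the pooled list (chr3L:15544653-15545048, signal 72.2), just outside the IDR list. With either replicate alone CrebA therefore still had a summit in the top 2133, but at a different place in the intron.

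A pair of IDR peaks lay upstream of CrebA, outside the 1000 bp that were counted, one weaker and one stronger than the intron peak in the IDR list. In replicate 3 both ranked better than the intron peak, which was at 2869 there. The weaker, 1849 bp upstream (chr3L:15533348-15533743), ranked 1183 in the IDR list, 2012 in replicate 2 and 1404 in replicate 3, and the start of CrebA was the nearest protein-coding start. The stronger, 2908 bp upstream (chr3L:15532289-15532684), ranked 203 with a signal of 186, and 102 and 945 in replicates 2 and 3. It was the best ranked IDR peak within 5000 bp of the start of any of the 9 genes, but its nearest start, 1014 bp away, is that of CG43248, which is transcribed in the other direction. Further out, IDR peaks lay 11385 bp upstream in CG7945 (rank 1130, with 3339 in replicate 2 and 531 in replicate 3), 26991 bp upstream (218, with 169 and 444) and 31237 bp downstream of the start in dop (1369, with 911 and 1737). Within 20000 bp of the start CrebA had 4 IDR summits, whereas 52.4% of all genes had none. Within 5000 bp it had 2, and 3.61% of all genes had 2 or more.

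The relaxed lists were dense over CrebA. In the gene and its 1000 bp upstream lay 20 regions of the pooled list, 19 of replicate 2 and 15 of replicate 3. That is 1.06 pooled regions per kb, against a median of 0.249 over the 1977 protein-coding genes of 10000 bp or more, of which 0.202% had more per kb. Of the 20 summits, 14 were in introns, 2 at the promoter, 2 in intergenic sequence, 1 in the 5′ UTR and 1 in coding sequence. Pooled ranks of the 20 reached from 1033 to 27094 (median 12044), and 2 of the 20 had a q value under 0.05. Both replicates had a summit inside 9 of the 20 (45.0%), against 38.7% of all 30000 pooled regions. Most regions over CrebA are thus weak, and their share shared by both replicates is near that of the whole list.

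At the start of CrebA itself the replicates gave different pictures. A promoter region 324 bp upstream ranked 2002 in replicate 2, and the pooled region nearest to it, 285 bp upstream, ranked 5316. In replicate 3 the region nearest upstream was 839 bp away, with a rank of 4405, and one in the 5′ UTR, 633 bp inside the gene, ranked 3184.

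At sage no region was found in the IDR list, the pooled list or the replicate 3 list. The gene (FBgn0037672, chr3R:9262654-9264142, minus strand, 1489 bp) held 1 region of replicate 2, with a rank of 14174, 679 bp inside the gene and 356 bp from the nearest of its 2 starts. A further replicate 2 region, rank 8991, lay 306 bp beyond the gene in the 3′ UTR of its neighbour ATP6AP2, which encodes an accessory protein of the vacuolar proton pump. No pooled summit was found between 9251010 and 9272782 on this arm, a gap of 21.8 kb that holds sage, and 20.2% of all genes lie in a gap as long or longer. Repeat-masked bases made up 9.9% of this gap. The nearest IDR summit, 25332 bp away at a promoter of pum, an RNA-binding repressor of translation, ranked 486 in the IDR list, 203 in replicate 2 and 368 in replicate 3. From the top 2133 regions of replicate 2 alone, that is without replicate 3, the nearest summit was 15578 bp away.

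**Figure D2:**
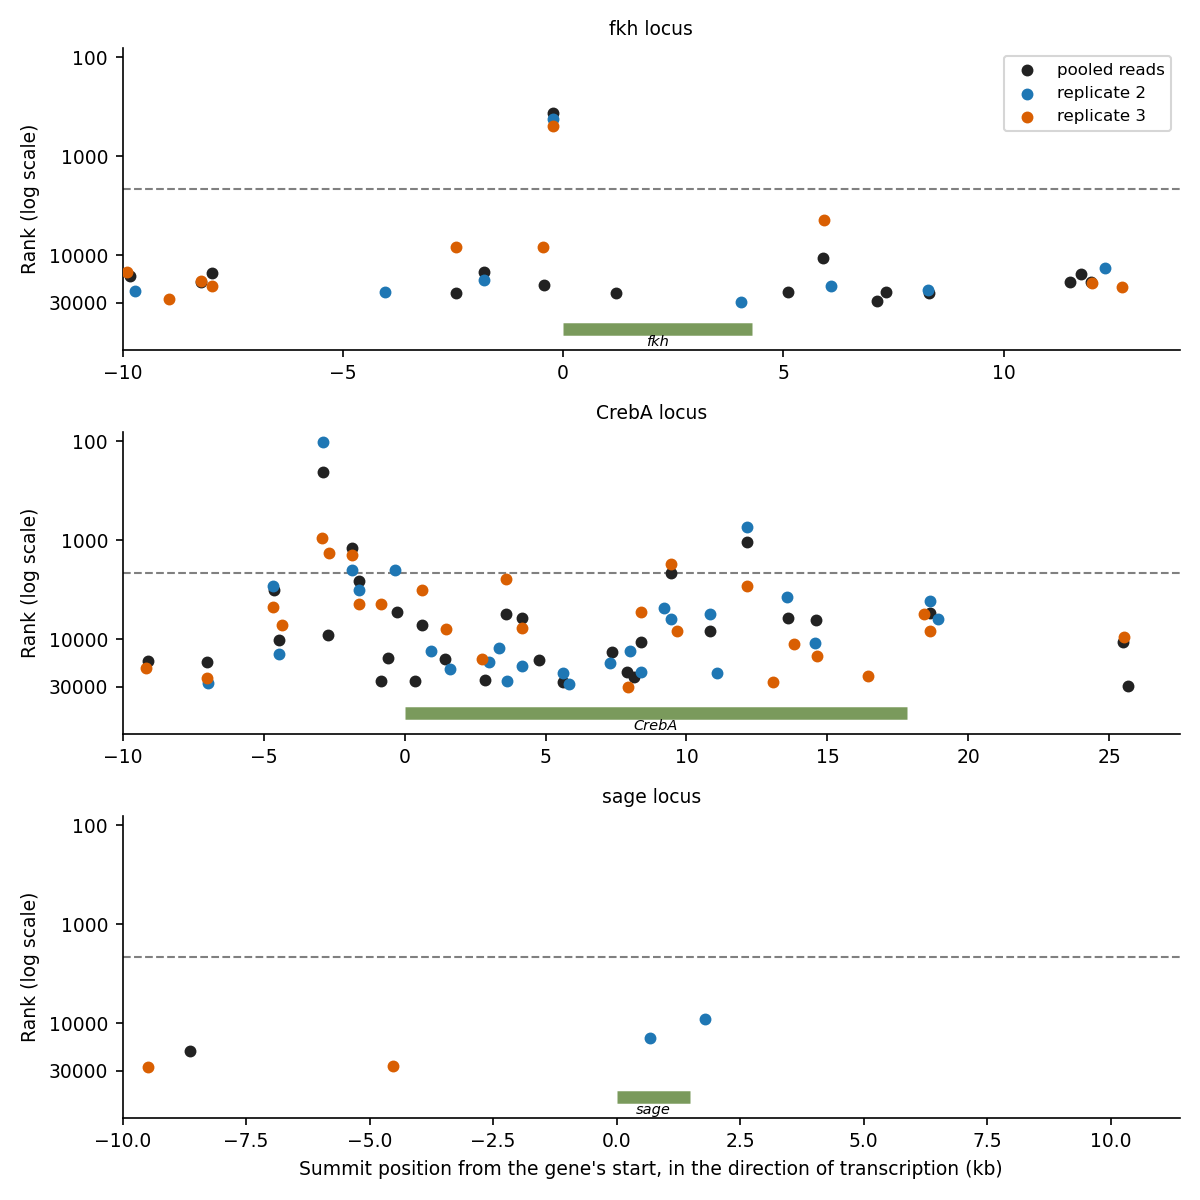
Summits around fkh, CrebA and sage in the pooled list and the lists of replicates 2 and 3, by position from the gene's start in the direction of transcription (x axis, kb) and by rank (y axis, log scale, strongest at the top). Green bars are the genes and the dashed line is rank 2133. A single high point in each list stands at the start of fkh, many points cover CrebA and the 5 kb before it, and 2 replicate 2 points lie at or next to sage.

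Among the glue genes Sgs1 had the best ranked regions. Sgs1 (FBgn0003372, chr2L:4937409-4941423, plus strand, 4015 bp) encodes a large mucin-like glue protein. Its promoter region had a summit 120 bp upstream of the start, with rank 5612 and a signal of 43.7 in the pooled list. In replicate 3 the summit was 117 bp upstream (rank 6046), and in replicate 2 it was 173 bp upstream (rank 10860). A second pooled region, 779 bp upstream with rank 8978, ranked 8461 in replicate 2 and 17655 in replicate 3, and lay nearer to the start of the neighbour hoe2 (180 bp) than to that of Sgs1. The replicates therefore placed both regions but ranked them in opposite order. Both pooled regions are within the 1000 bp counted for hoe2 as well. No list had a summit inside Sgs1, where 62.2% of the bases are repeat-masked in the reference. Mapping of reads there was not tested. The nearest IDR summit was 4044 bp beyond the gene, between the starts of mRpL24, a mitochondrial ribosomal protein gene, and betaggt-I, a prenyltransferase subunit gene (rank 1147, with 937 in replicate 2 and 1948 in replicate 3).

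Sgs5 had 1 weak region at its start in each list. The gene (FBgn0003375, chr3R:17595362-17596112, plus strand, 751 bp) lies 305 bp from its relative Sgs5bis, which had no region in any list. The summit was 60 bp upstream in the pooled list (rank 8699, signal 33.9), 67 bp upstream in replicate 2 (rank 16359) and 38 bp upstream in replicate 3 (rank 9932). The position was thus the same within 29 bp in the single replicates, at a rank far below the IDR list. Downstream, an intergenic region 9418 bp from the start ranked 3336 in the pooled list, 5750 in replicate 2 and 3089 in replicate 3, with sll, a sulfate donor transporter gene, 1326 bp away. The nearest IDR summit was 83506 bp from the gene, at a promoter of alt (rank 889, with 1051 in replicate 2 and 1395 in replicate 3), and 86.8% of all genes had a nearer one. Without replicate 3 the nearest summit was 23836 bp away. Sgs5 had no IDR summit within 50000 bp of its start, which 26.3% of all genes share.

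Sgs4, a repeat-rich glue gene with an upstream element where Fkh is known to bind, lies in an intron of another gene. Sgs4 (FBgn0003374, chrX:3250089-3251040, plus strand, 952 bp) sits inside a 74355 bp intron of dnc, the cAMP phosphodiesterase gene. The pooled list had 1 region 320 bp upstream (rank 12094) and 1 in its coding sequence, 655 bp from the start (rank 14820). In replicate 3 the coding region ranked 12582, with its summit at the same base, and the upstream one 17718, at 348 bp. Replicate 2 had only an upstream region, at 393 bp, with rank 29318, close to the end of its list. The upstream region is within the 1000 bp counted for Pig1 as well, a pre-intermoult gene that lies 800 bp from Sgs4 and is transcribed away from it.

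Stronger regions near Sgs4 belonged to dnc. A dnc promoter 5696 bp from the start of Sgs4 had a pooled rank of 2586 and ranks of 3246 and 2242 in replicates 2 and 3, all outside the top 2133. The nearest IDR summit was at another dnc promoter, 44030 bp from Sgs4 (rank 1260, with 3331 in replicate 2 and 585 in replicate 3). Without replicate 3 the nearest one was 110032 bp away.

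Sgs3, Sgs7 and Sgs8 form a cluster in which no list had a region at any of the 3 genes. Sgs8 (FBgn0003378, chr3L:11508967-11509394, minus strand, 428 bp) and Sgs7 (FBgn0003377, chr3L:11509861-11510247, plus strand, 387 bp) encode small glue proteins and are transcribed away from each other, 467 bp apart. Sgs3 (FBgn0003373, chr3L:11512221-11513402, plus strand, 1182 bp), a mucin-like glue gene, lies 1974 bp beyond Sgs7. The whole cluster lies in a gap of 17.2 kb between pooled summits at 11498774 and 11515947, and 26.8% of all genes lie in a gap as long or longer. In replicate 2 the gap was 26.6 kb, and 8.03% of genes lie in one as long or longer. In replicate 3 a single weak summit broke it, 148 bp beyond Sgs7, with rank 23185, at the promoter of CG33272. That summit lies 1 bp outside the 1000 bp counted upstream of the start of Sgs8, so the absence of a replicate 3 region at Sgs8 rests on that limit. Repeat-masked bases made up 61.9% of the pooled gap and annotated transposons 53.7%, whereas 8.38% of the bases of Sgs3, 6.72% of Sgs7 and 0% of Sgs8 were masked. How the repeats bear on the gap was not tested.

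The region nearest to this cluster in the pooled list was in an intron of CG7512, 2545 bp beyond Sgs3, with rank 13215 there and a replicate 3 region 142 bp further along at rank 7089. Replicate 2 had no region at that place, and its nearest one, rank 19971, was 6739 bp beyond Sgs3 in Fuca. The nearest IDR summit, shared by all 3 genes, was at a promoter of Mob2, a co-activator of NDR kinases, 39914 bp from Sgs3, 43069 bp from Sgs7 and 43922 bp from Sgs8 (rank 1416, with 1525 in replicate 2 and 604 in replicate 3).

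**Figure D3:**
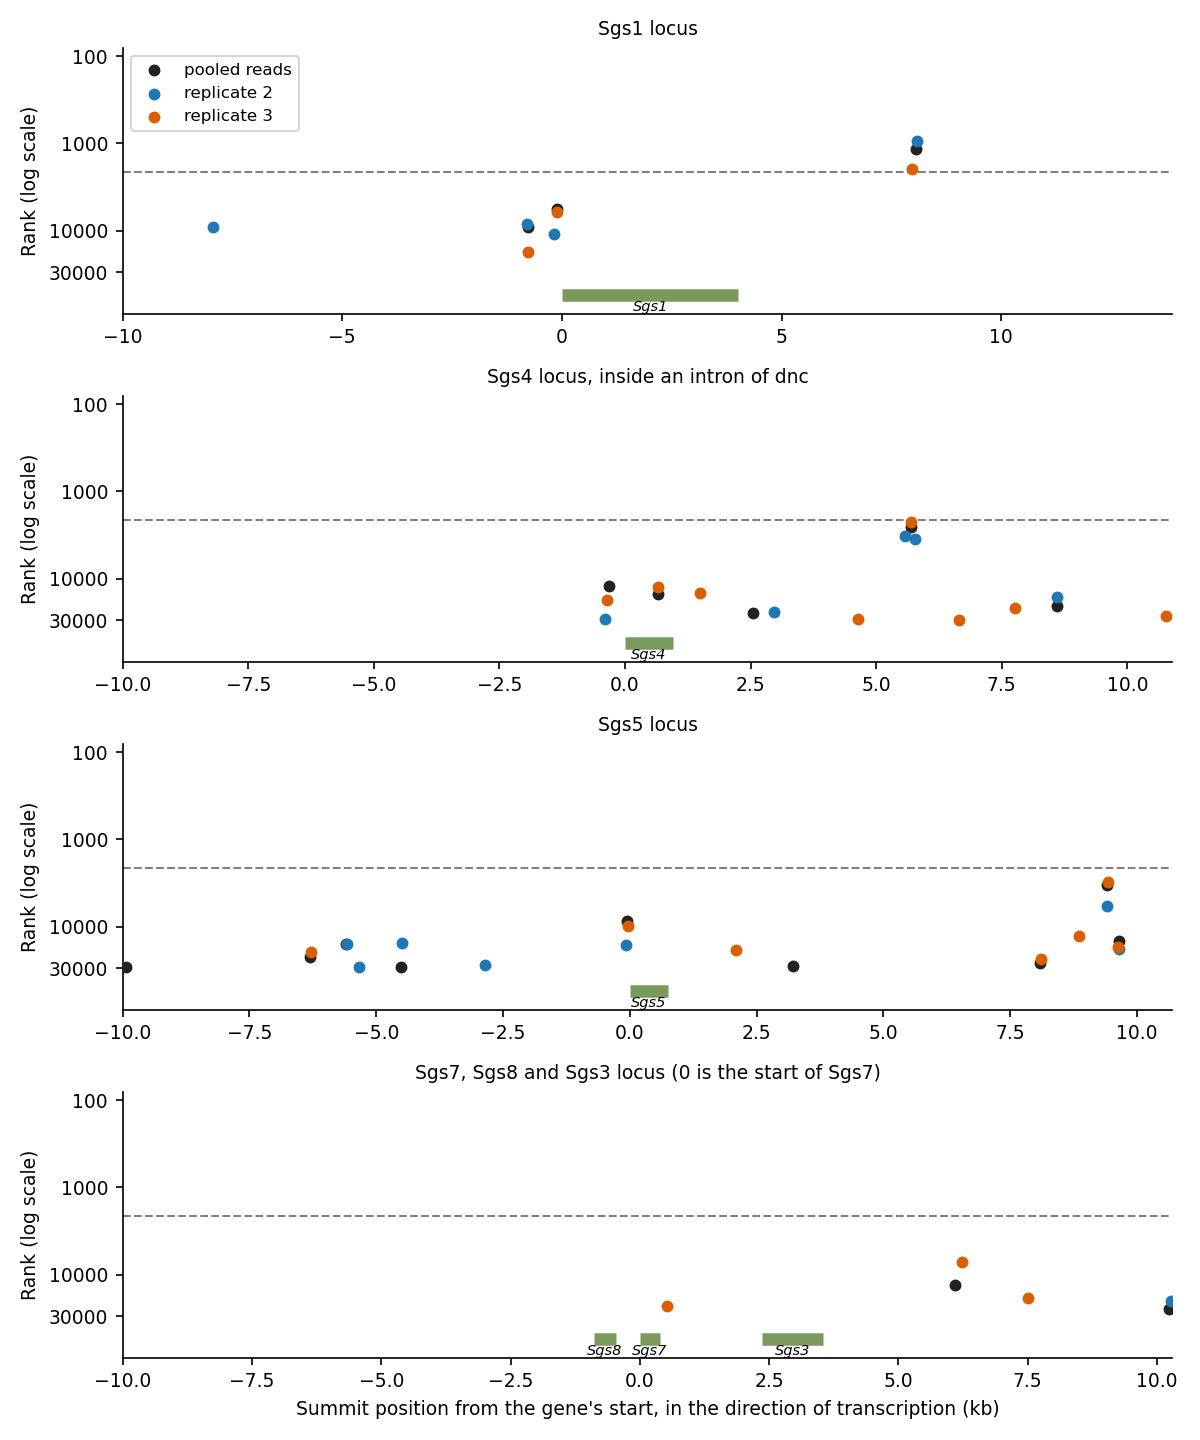
Summits around the glue genes in the pooled list and the lists of replicates 2 and 3, by position from the gene's start (x axis, kb; for the cluster, from the start of Sgs7) and by rank (y axis, log scale, strongest at the top). Green bars are the glue genes and the dashed line is rank 2133. Weak points of all 3 lists stand just before Sgs1, Sgs4 and Sgs5, and the cluster of Sgs8, Sgs7 and Sgs3 has 1 replicate 3 point, beside Sgs7.

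By distance to the nearest IDR summit the 9 genes ran from 0 bp for CrebA to 83506 bp for Sgs5. CrebA has a summit inside the gene, and fkh, at 240 bp, was farther from one than 9.39% of all genes. For sage 56.9% of genes had a nearer summit, and for Sgs1 20.6%. The other glue genes were at 69.0% (Sgs3), 71.2% (Sgs7), 71.8% (Sgs8), 71.8% (Sgs4) and 86.8% (Sgs5), all past the median distance of 19556 bp. Neighbouring genes share these distances: Sgs3, Sgs7 and Sgs8 rest on 1 summit and are not 3 separate observations.

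**Figure D4:**
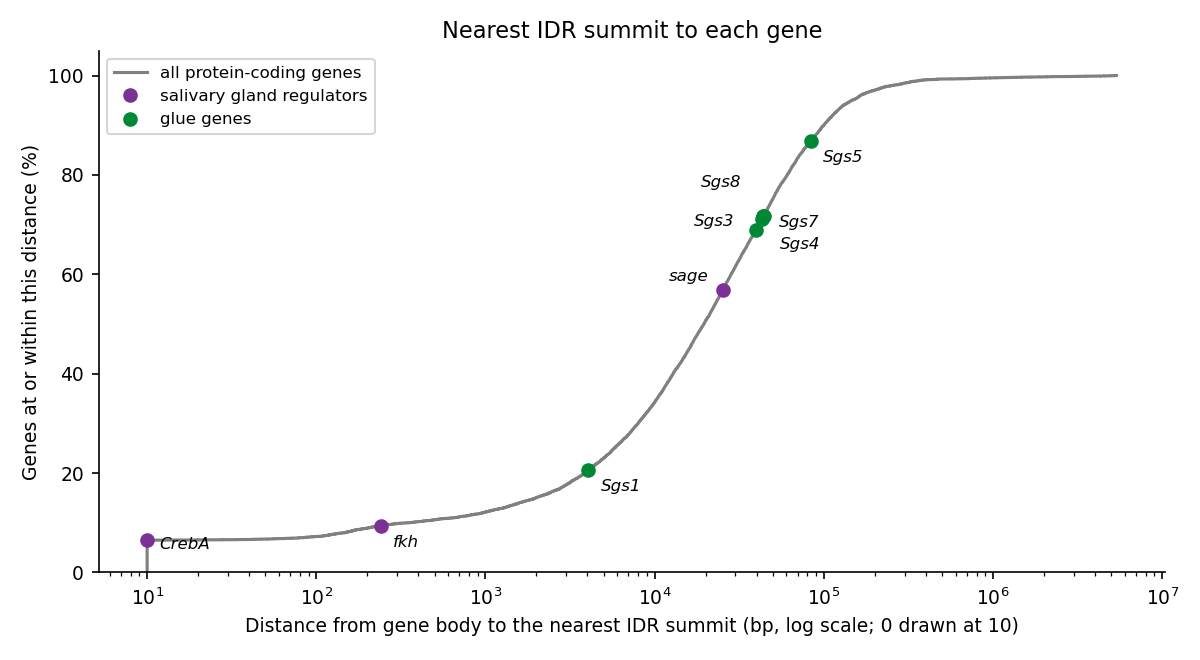
Share of all protein-coding genes at or within a given distance of an IDR summit (grey line; x axis in bp on a log scale with 0 drawn at 10, y axis in percent), with the 3 regulators in purple and the 6 glue genes in green placed on it. CrebA and fkh are at the low end, sage is past the median of 19556 bp, Sgs1 is at 4044 bp, and the other glue genes lie between 39914 and 83506 bp.

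Genes that work with the 9 were counted by the same rule in 6 comparison lists, to be read against the 10.6% of all genes and their median length of 2166 bp. Of 7 other glue and intermoult genes, Sgs5bis and Pig1 among them, none had an IDR summit, and only Pig1 had a pooled region, the one it shares with Sgs4. Their median length is 594 bp. Among 11 further genes of salivary gland fate, 3 had an IDR summit, hth and Scr, both homeobox genes that specify the gland, and Xbp1, a bZIP factor of the unfolded protein response. The median length of the 11 is 8419 bp. Of the 7 genes of ecdysone control 5 had one, led by Eip75B, EcR, Eip74EF and br, and the median length of these genes is 65426 bp.

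Genes listed for glue granules had IDR summits in 7 of 15 cases, against 10.6% of all genes, and a median length of 4164 bp. Those with a summit ran in length from 2080 bp (sqh) to 59682 bp (Pgant9). The strongest were at Pgant9, an enzyme that glycosylates mucins (rank 163, with 359 in replicate 2 and 127 in replicate 3), and sqh, the myosin light chain (441, with 788 and 397). Tango1, which loads bulky cargo at exit sites of the endoplasmic reticulum, ranked 594 in the pooled list and 543 in replicate 2. Its best replicate 3 region in the gene or up to 1000 bp upstream ranked 16736. Sec23, a coat subunit of vesicles that leave the endoplasmic reticulum, ranked 607, with 897 and 631. The nearest IDR summit lay inside Pgant9 and sqh, 418 bp from Sec23 and 964 bp from Tango1. The count of Tango1 thus rests on the limit of 1000 bp upstream. Its rank in replicate 3 rests on that limit too, since a summit slightly farther upstream would not be counted. In the general machinery of secretion, the genes that CrebA is known to control, 3 of 15 had a summit. These were Srp72 (826), TRAM (884) and SrpRbeta (893), all parts of protein entry into the endoplasmic reticulum. The nearest IDR summit lay inside TRAM, but 881 bp from Srp72 and 983 bp from SrpRbeta. The counts of Srp72 and SrpRbeta thus also rest on the limit of 1000 bp. The median length of the machinery list is 2356 bp. The forkhead relatives of fkh had one in 4 of 15 genes, with a median length of 3826 bp. These were foxo (28, with 17 in replicate 2 and 36 in replicate 3), jumu (234, with 317 and 172), FoxK (276, with 1211 and 103) and CHES-1-like (292, with 439 and 175). All of them ranked better than fkh in the pooled list and in replicate 3, but FoxK and CHES-1-like ranked below it in replicate 2. The lengths of these 4 genes are 31034, 11431, 6615 and 27048 bp in that order, and they hold 2, 4, 1 and 8 IDR summits. The gene fkh, at 4289 bp, has 1 summit, so these best ranks were not compared at like length. No test was made on these lists, whose genes differ in length and were chosen with earlier results known. The counts also depend on how genes of vesicle coats were split between the granule list and the machinery list.

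**Figure D5:**
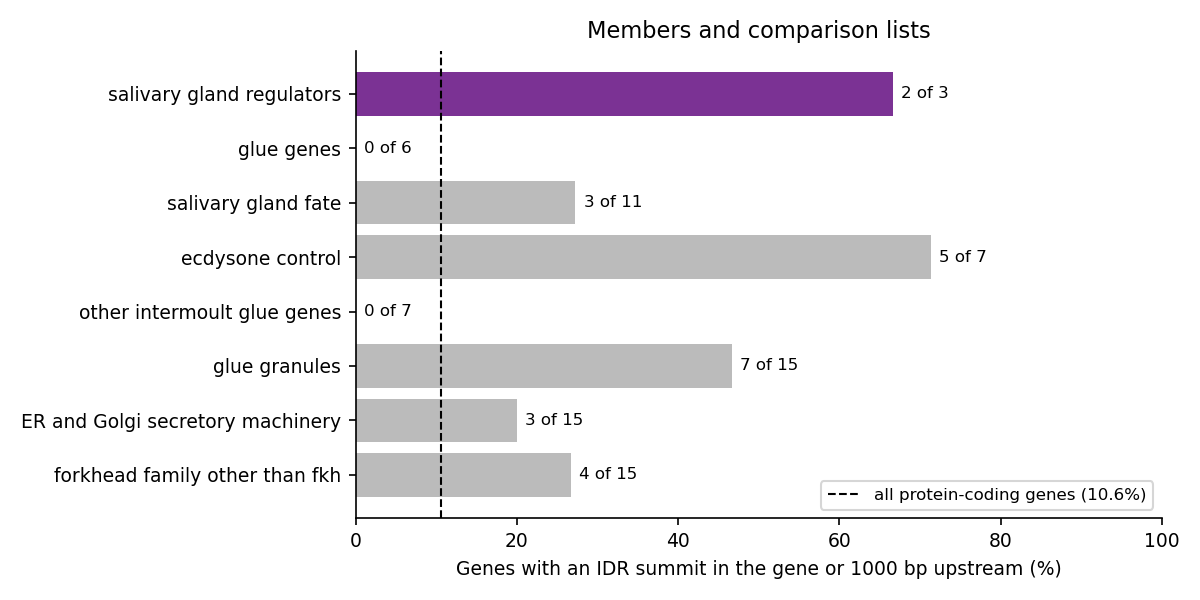
Share of genes with an IDR summit in the gene or up to 1000 bp upstream (x axis, percent) for the salivary gland regulators, the glue genes and 6 comparison lists (y axis), with the number of genes beside each bar. The dashed line is the share of all protein-coding genes, 10.6%. Neither list of glue genes has a bar, and the regulators (2 of 3) and the ecdysone control genes (5 of 7) have the longest ones.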

How the data were processed

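The samples are 2 ChIP-seq libraries, biological replicates of 1 group. The authors deposited narrowPeak lists. Per the labels and the text deposited with the samples, a control alignment entered peak calling, and the list after IDR came from the relaxed lists of each replicate and of the pooled reads. Which aligner and peak caller were run is not given in the sources used here. Each region's signal is the authors' value relative to the control and ranked regions within 1 list. The deposited −log10 q served only to count regions with a q value under 0.05. The deposited summit offset, added to the region's start, gave each summit, and positions are counted from 1. Lists on dm3 were not used.

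The annotation was BDGP6.54 of Ensembl release 115, and RefSeq's dm6 genome supplied the sequence. A gene was counted when a summit lay in it or up to 1000 bp upstream. Promoter means within 500 bp of a start. Named were all members with their IDR summits or the nearest one, their best region in each list, genes that hold or neighbour them and up to 4 genes per comparison list. Of the 72 list symbols 4 were matched through synonyms, and 2 of the forkhead symbols proved to be synonyms of others. Members and lists were chosen with earlier results of these data known, and no statistical test was run. Alternatives left out each replicate, changed the threshold, the upstream distance, the assignment or the motif window. The assignment of summits to genes and the string search were tested on 200 planted cases. Tools were Python 3.11.15, numpy 2.4.6, pandas 2.3.3 and matplotlib 3.10.9.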

Additional observations from a re-analysis of the deposited data

How the results depend on the processing

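The genes with a summit were fkh and CrebA under each of the 9 alternatives run, and no glue gene gained one. Over these the share of all genes with a summit ran from 6.08% (the 1066 strongest IDR peaks) to 17.5% (4236 regions of the pooled list, q under 0.05), and was 16.0% with 5000 bp upstream. Leaving out a replicate gave 2 genes of 9 each time, and 10.6% or 10.8% of all genes. Longer upstream distances could only add genes. The counted peak of CrebA, at rank 1033, was close to the cut of the 1066 strongest. With each summit given only to its nearest start, that peak goes to AGO2. CrebA was then kept by the peak 1849 bp upstream, which the main rule does not count. In the IDR windows of fkh and CrebA 3 of the 10 strings were found within 100 bp and within 200 bp of the summit, but 1 within 50 bp, the E-box string. Of 27 distances to the nearest summit under alternatives, 19 moved by less than a peak width and 8 by more. Besides those of sage, Sgs4 and Sgs5 without replicate 3, these were with the 1066 strongest peaks: 40122 bp for Sgs1, 106173 bp for Sgs3, 157291 bp for Sgs4, 103813 bp for Sgs7 and 102919 bp for Sgs8, since fewer peaks remain. Listing the best rank of each gene in each replicate was added after the data were seen. No paired analysis was possible because there is 1 group. Unknown depth and 2 replicates limit what a missing region shows, and a missing region does not show that Rel was absent.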

Other observations

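Among protein-coding genes of 10000 bp or more, the density of pooled relaxed regions over CrebA, 1.06 per kb, was exceeded by 4 genes. These were PRAS40 (1.23), HmgD (1.11), Diap1, an inhibitor of caspases (1.10), and Gclc, an enzyme of glutathione synthesis (1.07). The genes puc, a phosphatase of the JNK pathway, and red also had 1.06 per kb. They were picked by this density after the values were seen, and no explanation was tested.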
